A study of Mus musculus with 12 samples.

Results

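The genes of 41 splicing factors were followed in mouse embryonic stem cells depleted of Tet1 or of Tet2. They comprised 12 genes of SR proteins, 17 of heterogeneous nuclear ribonucleoproteins (hnRNPs) and the related polypyrimidine tract-binding (PTB) proteins, 5 of LUC7-like and U2AF proteins, 2 of CLK kinases and 5 of splicing regulators with tissue-biased roles. The members were chosen by gene symbol, a rule that uses no measured value but was set with earlier results of these data known. All 41 were found among the 36521 rows of the gene tables, and their genes were divided into 1072 of the 366995 exon bins, where a bin is an exon or a piece of one that is cut at every annotated exon boundary. In 36 cases the gene had a row of its own. Srsf2, Hnrnpa3, Hnrnpm, Hnrnpu and Clk4 shared a row with an overlapping gene, so their reads are those of both genes and their values are uncertain.

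SR proteins bind exons through RNA recognition motifs and recruit the spliceosome through domains rich in arginine and serine, which CLK kinases phosphorylate. Proteins of the hnRNP families coat nascent transcripts and often oppose SR proteins at the same exons, while LUC7-like proteins act with the U1 particle at the 5′ splice site and U2AF marks the 3′ splice site. Many of these genes limit their own output. In SR genes, for example, the protein often promotes the inclusion of a poison exon in its own transcript, which is then degraded by nonsense-mediated decay. Which bins hold such exons was not analysed here. Tet1 and Tet2 encode dioxygenases that oxidize methylated cytosine, a base found in mammals mostly at CpG dinucleotides.

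The parental group was the line V6.5, embryonic stem cells grown with serum and leukaemia inhibitory factor. Tet1kd and Tet2kd were cells of that line electroporated with a pSUPER-puro plasmid for a short hairpin RNA against Tet1 or Tet2, selected with puromycin on inactivated feeder cells and picked as single clones. No group carried a control hairpin, and the labels do not say how many clones stand behind a group, so the knockdown, the vector, the selection and the clone cannot be told apart. Each group held 4 libraries of poly(A)-selected RNA, which the labels call biological replicates without saying what was repeated. The p-values therefore measure the spread between these libraries, which may be technical.

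The promoters of the members hold many CpG dinucleotides. RefSeq windows (assembly GRCm38.p6) from 250 bases before to 50 bases after the start of the gene were matched for 36 of the 41 members. The first listed window of a member held a median of 30.0 CpG dinucleotides (2 to 52), against 7.00 over all 32851 windows of mouse genes. Printed here are the windows of 4 members: Tra2a (chr6:49264003-49264302, minus strand), Hnrnpa2b1 (chr6:51469845-51470144, minus strand, the first of 2 windows), Luc7l3 (chr11:94321914-94322213, minus strand) and Mbnl2 (chr14:120275419-120275718, plus strand). Tra2a and Hnrnpa2b1 lie in a stretch of chromosome 6 most of whose genes fell in Tet1kd cells, as described below. The first 3 belong to genes that fell most in Tet1kd cells and hold 25, 34 and 30 CpG dinucleotides. The last belongs to Mbnl2, the only member called higher there by the first of the authors' deposited tests, and holds 10. The number does not order the members by their change: the windows of Hnrnpf, which fell in Tet1kd cells, and of Mbnl1, which fell in Tet2kd cells, hold 7 and 2. Every CG is in capitals.
Tra2a: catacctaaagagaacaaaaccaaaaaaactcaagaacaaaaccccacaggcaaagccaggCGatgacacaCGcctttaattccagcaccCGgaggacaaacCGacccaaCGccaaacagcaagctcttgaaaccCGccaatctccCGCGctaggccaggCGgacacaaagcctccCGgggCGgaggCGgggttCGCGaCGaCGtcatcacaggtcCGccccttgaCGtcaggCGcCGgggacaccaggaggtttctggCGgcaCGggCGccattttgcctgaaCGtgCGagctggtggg
Hnrnpa2b1: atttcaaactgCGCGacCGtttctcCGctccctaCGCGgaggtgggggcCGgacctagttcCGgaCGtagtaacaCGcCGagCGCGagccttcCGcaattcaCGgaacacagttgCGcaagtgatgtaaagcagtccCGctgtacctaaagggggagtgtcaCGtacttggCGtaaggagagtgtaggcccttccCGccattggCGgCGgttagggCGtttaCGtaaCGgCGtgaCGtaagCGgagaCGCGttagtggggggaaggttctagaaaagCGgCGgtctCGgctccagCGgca
Luc7l3: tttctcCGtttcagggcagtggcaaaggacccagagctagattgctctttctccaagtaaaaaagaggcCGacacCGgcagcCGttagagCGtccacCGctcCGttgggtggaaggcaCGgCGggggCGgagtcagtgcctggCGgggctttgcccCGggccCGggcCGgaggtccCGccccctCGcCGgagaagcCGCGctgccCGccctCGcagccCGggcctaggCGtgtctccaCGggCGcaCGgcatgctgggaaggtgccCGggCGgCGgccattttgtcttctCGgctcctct
Mbnl2: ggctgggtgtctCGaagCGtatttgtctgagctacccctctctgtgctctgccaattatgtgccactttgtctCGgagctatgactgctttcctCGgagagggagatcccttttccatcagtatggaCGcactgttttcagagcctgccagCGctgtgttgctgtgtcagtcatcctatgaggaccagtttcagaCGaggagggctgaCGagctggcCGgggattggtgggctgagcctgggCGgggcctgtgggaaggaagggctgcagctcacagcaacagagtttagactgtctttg

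Of 3 short motifs searched on both strands, TATAAA was in 11.1% of the members' windows and in 13.6% of all windows, CACGTG in 16.7% and 7.15%, and CCGGAAG in 16.7% and 8.86%. CACGTG was in 6 of the 36 windows, as was CCGGAAG, and none of the 4 printed windows held any of these motifs. CACGTG and CCGGAAG each hold a CG, of which the members' windows have more than all windows. The part of this in their shares was not tested. Such matches are letters in a window and say nothing of a factor bound there.

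The targeted gene was lower in its own knockdown. Tet1 was at 25.2% of its parental mean in Tet1kd cells and Tet2 at 50.9% in Tet2kd cells by the authors' deposited tables. All 10 markers of embryonic stem cells were expressed in each group, with means of at least 2857 normalized counts. Of these, 5 rose and 1 fell in Tet1kd cells, and 1 rose and 0 fell in Tet2kd cells. Of 18 markers of feeder fibroblasts 14 fell and 1 rose in Tet1kd cells, where their summed level was 5737 to 6505 per library, against 7789 to 8745 in parental libraries. The falls differed in size. Dcn went from a mean of 243 in parental to 7.71 in Tet1kd cells, and Lum, which is low in both, from 18.6 to 0.414. Col1a1 went from 1632 to 1317 and Col1a2 from 960 to 748. Thy1 and Fbln2 showed no call, and Col5a1 rose from 807 to 1076. In Tet2kd cells 3 fell and 3 rose, and the summed level was 9290 to 10132. The part of these markers in the results below was not tested. In such bulk RNA, fewer cells of a type and less RNA per cell cannot be told apart. Libraries ranged in depth from about 14.4 M to 39.7 M reads, an estimate scaled up from the recovered reads.

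Most splicing factor genes had a lower level in Tet1kd than in parental cells. By the first of the authors' deposited tests (adjusted p under 0.05) 22 of 41 fell, 1 rose and 18 did neither, while 15.3% of all genes tested fell and 15.2% rose. Among well expressed genes, with a mean of at least 500 normalized counts, 21 of 39 members fell, against 25.9% of all such genes, of which 23.9% rose. The log2 fold change was negative for 35 of 41 members, with a median of -0.24, against -0.02 over all genes tested. The second deposited test called 29 members lower and 3 higher, against 20.2% and 19.0% of all genes. Without Tra2a and Hnrnpa2b1, which lie in a stretch of chromosome 6 that is described below, 20 of 39 fell and 1 rose.

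The plot of log2 fold changes shows all 41 members by group.

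**Figure D1:**
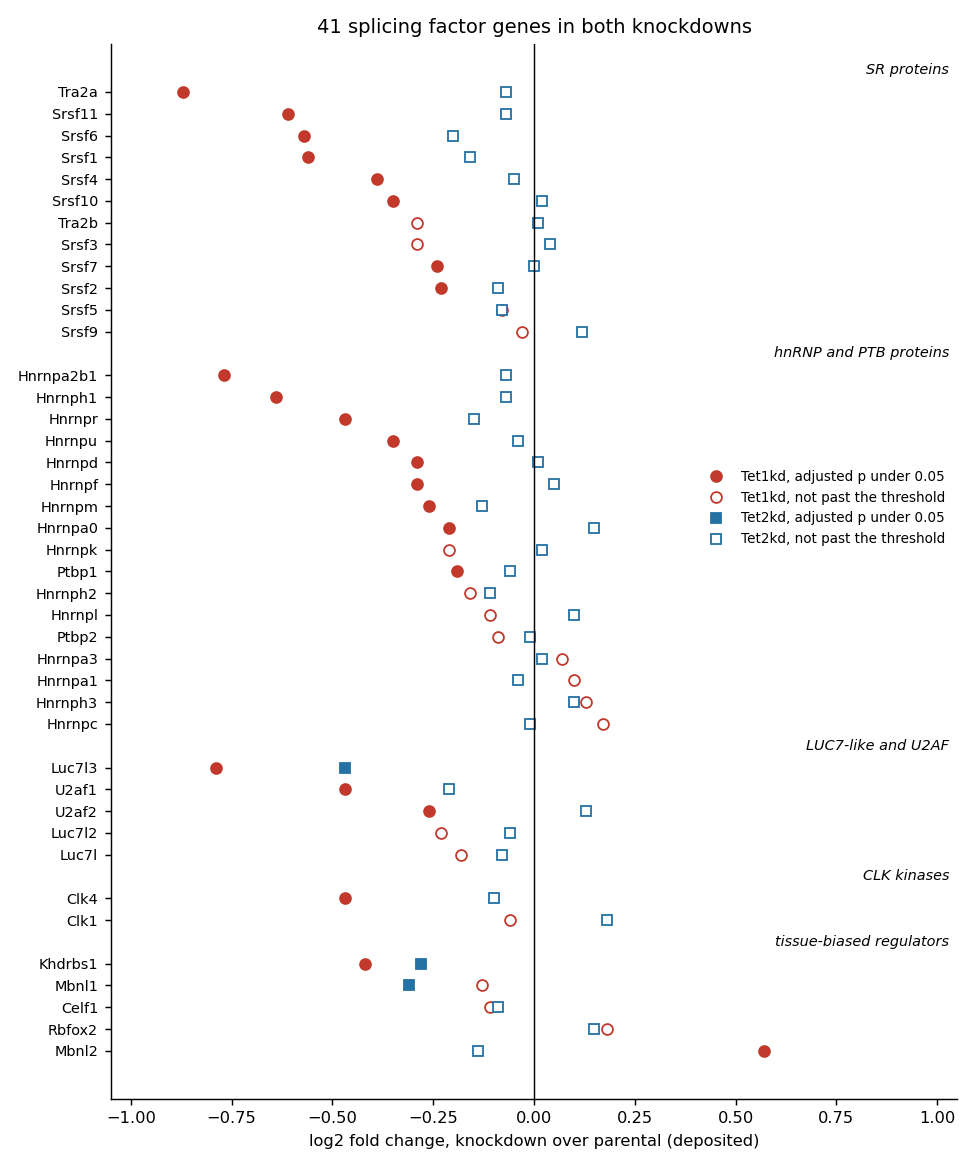
Log2 fold change of each splicing factor gene (x axis, knockdown over parental, from the authors' deposited tables) in Tet1kd (red circles) and Tet2kd cells (blue squares), ordered within each protein group; filled symbols have an adjusted p under 0.05. The Tet1kd values reach from -0.87 for Tra2a to 0.57 for Mbnl2, while the Tet2kd values lie between -0.47 and 0.18.

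Values per library were recovered from the deposited means, as the processing section describes, and are given as normalized counts on 1 scale for all 12 libraries. Libraries carry the letters a to d by depth, a and b being the deeper ones. Each library was held to within 60% of its group mean, plus a margin for low counts. Where that gave no single answer, the limit was 20%. The 20% limit applied in Tet1kd cells to Tra2a, Srsf11, Hnrnph1 and Khdrbs1, among others. It kept their libraries below the parental ones, so the gap adds nothing to the means. It also bounds their spread. In Tet2kd cells the 20% limit applied to Tra2a, Hnrnph1 and Rbfox2, among others, and bounds their spread there. The values of all libraries needed for a comparison with parental cells were recovered for 32 members in Tet1kd and for 28 in Tet2kd cells. All 4 Tet1kd libraries lay below all 4 parental libraries for 15 of the 32 members and above them for 2, and the groups overlapped for 15. Over all genes recovered, the first pattern was seen for 24.6% and the second for 24.4%. The 15 members that lay below include Tra2a, Srsf11, Hnrnph1 and Khdrbs1, whose gap the 20% limit fixed. How many of all genes are such cases is not given here. The count and the shares therefore draw no conclusion about the members.

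Among the SR protein genes 8 of 12 fell in Tet1kd cells and none rose, with a median log2 fold change of -0.32. The largest fall was that of Tra2a, whose product activates the inclusion of exons as a partner of SR proteins. Tra2a was at 6508, 6205, 5974 and 5828 normalized counts in parental libraries a to d and at 3613, 3441, 3297 and 3016 in Tet1kd libraries a to d. The Tet2kd libraries were at 5995, 6224, 5447 and 5791. The Tet1kd values lay far below the other groups, which overlapped. A gap to the libraries of both other groups was fixed by the 20% limit of the recovery, which held in both knockdowns. Tra2a had a log2 fold change of -0.87 by the authors' deposited table (adjusted p = 1.46e-22), and of -0.85 in the deeper and -0.90 in the shallower libraries.

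Srsf11 encodes an SR-like protein that contacts U2AF. It was at 10288, 10234, 10548 and 10624 normalized counts in parental and at 6748, 7029, 6621 and 6908 in Tet1kd libraries. No Tet1kd library could reach a parental one under the 20% limit of the recovery. The log2 fold change was -0.61 by the authors' deposited table (adjusted p = 9.08e-12). In Tet2kd cells only the group mean is known, which was 9957. Srsf6 and Srsf1, 2 of the classical SR proteins, had log2 fold changes of -0.57 and -0.56 by the authors' deposited table (adjusted p = 9.79e-11 and 1.60e-05).

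The other SR genes that fell changed less. Srsf4, a large SR protein, was at 2963 to 3384 normalized counts in parental and at 2283 to 2530 in Tet1kd libraries, a log2 fold change of -0.39 by the authors' deposited table. Srsf10, which represses splicing when it loses its phosphates, had a log2 fold change of -0.35 there, Srsf7 one of -0.24 and the merged row of Srsf2 one of -0.23. Srsf3, the smallest SR protein, and Tra2b, the paralog of Tra2a, both stood at -0.29 without passing the test (adjusted p = 0.251 and 0.106 by the authors' deposited table). Their parental and Tet1kd libraries overlapped, and in each group the deeper libraries read higher than the shallower ones. Srsf3 ranged from 4486 to 6478 in parental and from 3735 to 5169 in Tet1kd libraries. Tra2b passed by limma (adjusted p = 0.0333) and Srsf3 did not (adjusted p = 0.0799). With deeper and shallower libraries as a term, both passed by limma (adjusted p = 3.83e-06 and 5.06e-06). Srsf5 (-0.08) and Srsf9 (-0.03) showed no call by the authors' deposited table.

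Of the 17 hnRNP and PTB genes 9 fell in Tet1kd cells, none rose, and the median log2 fold change was -0.21. Hnrnpa2b1, whose product binds and transports RNA, had parental values of 15650, 15758, 14266 and 14111 normalized counts. Its mean in Tet1kd cells was 8735, below every parental library, and in Tet2kd cells 14238. The values of its knockdown libraries were not recovered. Its log2 fold change in Tet1kd cells was -0.77 by the authors' deposited table (adjusted p = 1.20e-19).

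Hnrnph1, a protein that binds runs of guanine, was at 9182, 9239, 8571 and 8584 in parental and at 6247, 5853, 5432 and 5230 in Tet1kd libraries. The Tet2kd libraries, at 8620, 9413, 8318 and 7731, overlapped the parental ones. The Tet1kd libraries overlapped neither, which the 20% limit of the recovery fixed for the parental ones. Hnrnph1 had a log2 fold change of -0.64 by the authors' deposited table (adjusted p = 1.26e-12). Of its relatives in the H and F family, Hnrnpf fell by 0.29 on the log2 scale, while Hnrnph2 (-0.16) and Hnrnph3 (0.13) showed no call by the authors' deposited table.

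Hnrnpr fell by 0.47, Hnrnpd, which binds AU-rich elements, by 0.29, Hnrnpa0 by 0.21 and the splicing repressor Ptbp1 by 0.19 on the log2 scale by the authors' deposited table. The merged rows of Hnrnpu, a nuclear scaffold protein, and of Hnrnpm fell by 0.35 and 0.26. The calls of Ptbp1 and Hnrnpa0 were close to the threshold (adjusted p = 0.0447 and 0.0495 by the authors' deposited table). The 8 genes without a call ranged from -0.21 for Hnrnpk, a poly(C)-binding protein, to 0.17 for Hnrnpc, which binds uridine tracts. Hnrnpl (-0.11), Ptbp2 (-0.09), Hnrnpa1 (0.10) and the merged row of Hnrnpa3 (0.07) lay between them by the authors' deposited table. Hnrnpa1, an antagonist of SR proteins, was at 278 to 316 normalized counts in parental and at 286 to 340 in Tet1kd libraries, which overlapped. This gene has near-identical processed copies, so its counts are uncertain.

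Each of the 5 LUC7-like and U2AF genes had a negative log2 fold change in Tet1kd cells, and 3 fell. Luc7l3 is a homolog of a yeast U1 particle protein that sets the choice of the 5′ splice site. It was at 4490, 4314, 3902 and 4098 normalized counts in parental, at 2643, 2382, 2540 and 2096 in Tet1kd and at 2986, 3374, 2981 and 2839 in Tet2kd libraries. The 3 groups did not overlap, with Tet1kd lowest and Tet2kd between. Luc7l3 had a Tet1kd log2 fold change of -0.79 by the authors' deposited table (adjusted p = 1.84e-18). U2af1, which reads the AG of the 3′ splice site, fell by 0.47, and its partner U2af2, which reads the pyrimidine tract, by 0.26 on the log2 scale. Luc7l2 (-0.23) and Luc7l (-0.18) did not pass the first test by the authors' deposited table (adjusted p = 0.0684 and 0.0914), but did so by limma (adjusted p = 0.0215 and 0.0112).

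The merged row of the kinase gene Clk4 fell by 0.47 on the log2 scale in Tet1kd cells by the authors' deposited table (adjusted p = 1.46e-05), while Clk1 stood at -0.06 (adjusted p = 0.804). Among the tissue-biased regulators Khdrbs1 fell and Mbnl2 rose. Khdrbs1, also known as Sam68, was at 5289 to 5623 normalized counts in parental and at 3996 to 4130 in Tet1kd libraries, and its log2 fold change was -0.42 by the authors' deposited table (adjusted p = 6.88e-06).

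Mbnl2, a muscleblind protein that drives splicing patterns of differentiated tissues, was at 1258, 1312, 1095 and 1056 in parental and at 1863, 1852, 1604 and 1681 in Tet1kd libraries. The Tet2kd libraries were at 1121, 1213, 939 and 1009. All Tet1kd libraries were higher than all others. The log2 fold change of Mbnl2 in Tet1kd cells was 0.57 by the authors' deposited table (adjusted p = 2.63e-08). Its paralog Mbnl1 stood at -0.13, the CUG-binding Celf1 at -0.11 and Rbfox2 at 0.18 by the authors' deposited table, none with a call by the first test. All 4 Tet1kd libraries of Rbfox2, at 3681 to 3934, were nonetheless above all 4 parental ones, at 3312 to 3437, and limma called it higher (adjusted p = 0.00426).

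**Figure D2:**
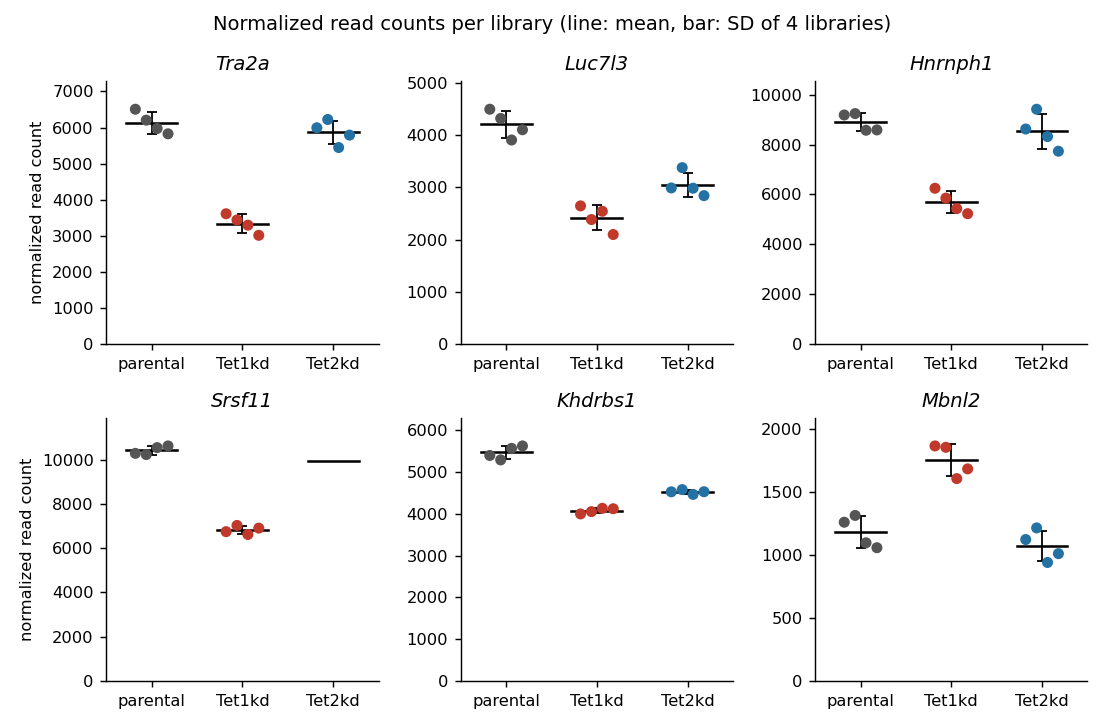
Normalized read count (y axes, from 0) of 6 splicing factor genes in each library of the parental (grey), Tet1kd (red) and Tet2kd (blue) groups; lines are group means and bars the SD of 4 libraries, and a line without points is a deposited mean whose libraries were not recovered. Tet1kd libraries stand apart from parental libraries in every panel, and Tet2kd libraries do so for Luc7l3 and Khdrbs1. For Tra2a, Hnrnph1, Srsf11 and Khdrbs1 in Tet1kd cells the 20% limit of the recovery fixed this.

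Few of these genes changed in Tet2kd cells. By the first deposited test (DESeq) 3 of 41 fell and 0 rose, against 3.29% and 3.85% of all genes tested, and 6.37% of well expressed genes fell. The median log2 fold change of the members was -0.06, against 0.00 over all genes tested, and 26 of 41 were negative. An unadjusted p under 0.05 was reached by 5 members by the authors' deposited table, and limma called 3 of 28 lower and 1 higher. The shares of all genes at these settings are not given here, so these counts have no background. The second deposited test called 8 lower and 5 higher, against 9.40% and 8.78% of all genes. All 4 Tet2kd libraries lay below all parental ones for 3 of 28 members, against 11.3% of all genes recovered. They lay above them for 1, against 11.7% of all genes. This was Rbfox2, at 3635, 3795, 3816 and 3656 normalized counts, which limma called higher (adjusted p = 0.0328) and the first deposited test did not (adjusted p = 0.421).

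Luc7l3 was the member with the largest fall, by 0.47 on the log2 scale by the authors' deposited table (adjusted p = 8.46e-07), or to 72.3% of its parental mean. Khdrbs1 was at 4525, 4578, 4463 and 4527 normalized counts, below the whole parental range, and had a log2 fold change of -0.28 by the authors' deposited table (adjusted p = 0.0184). Mbnl1 was at 631, 701, 575 and 598 in Tet2kd and at 816, 802, 709 and 781 in parental libraries. Its groups did not overlap, and its log2 fold change was -0.31 by the authors' deposited table (adjusted p = 0.0365). This last call is near its limit. Mbnl1 in Tet2kd against parental cells missed the threshold by limma without parental replicate a (adjusted p = 0.0512), without parental replicate b (0.0519) or without Tet2kd replicate c (0.0531), against 0.0180 with all libraries and 3.44e-04 with deeper and shallower libraries as a term. The other 38 members had log2 fold changes from -0.21 for U2af1 to 0.18 for Clk1 by the authors' deposited table.

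The difference between the knockdowns was tested itself, with limma over all 12 libraries. Of 28 members with values in every library 15 were lower in Tet1kd than in Tet2kd cells, 1 was higher and 12 did not pass the test, while 25.4% of all genes tested were lower and 25.3% higher. The median difference was -0.21 on the log2 scale. Tra2a differed by -0.81 ± 0.0588 (SE, adjusted p = 1.95e-08 by limma) and Hnrnph1 by -0.58 ± 0.0628 (SE, adjusted p = 1.61e-06 by limma). Luc7l3, which fell in both, differed by -0.34 ± 0.0729 (SE, adjusted p = 0.00121 by limma). Mbnl2 differed by 0.71 ± 0.0895 (SE, adjusted p = 7.92e-06 by limma). Rbfox2 differed by 0.03 ± 0.0407 (SE) and showed no call.

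The fall of Tra2a and of Hnrnpa2b1 in Tet1kd cells was shared by the genes around them. The 10 nearest genes on each side of Tra2a stood at a median of -0.65 (log2, Tet1kd over parental), with 13 of 20 lower and 0 higher. Around Hnrnpa2b1 the median was -0.83, with 14 of 20 lower and 0 higher. Both lie in a stretch of chromosome 6 in which 255 genes had median log2 fold changes of -0.87 (Tet1kd) and 0.03 (Tet2kd), and 182 of the 255 fell. No other stretch of at least 100 genes, in either knockdown, had a running median over 21 genes that stayed at least 0.3 away from 0. The other 425 genes of chromosome 6 had a median of 0.00. Hnrnpf and Luc7l2 are on chromosome 6 outside the stretch, and their neighbours had medians of 0.15 and 0.22.

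The neighbours of the other 39 members had medians from -0.39 to 0.41 in Tet1kd cells, and those of all 41 from -0.11 to 0.19 in Tet2kd cells. The neighbours of Luc7l3 stood at -0.14 in Tet1kd and at 0.01 in Tet2kd cells, those of Hnrnph1 at 0.14 and those of Srsf11 at -0.10 in Tet1kd cells. The genes around these 3 were thus shifted less than the genes themselves, or the other way. For U2af2 (-0.26) the neighbours were lower than the gene itself, at -0.39. The copy number of these regions was not analysed here.

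**Figure D3:**
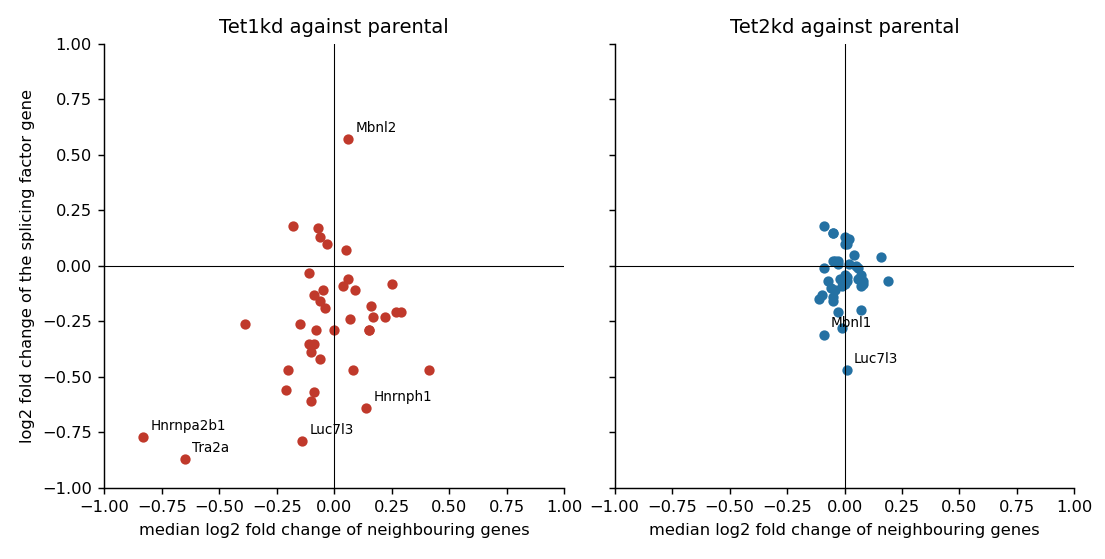
Log2 fold change of each splicing factor gene (y axis) against the median log2 fold change of up to 10 tested genes on each side of it (x axis) in Tet1kd (left) and Tet2kd cells (right), from the authors' deposited tables. In Tet1kd cells Tra2a and Hnrnpa2b1 stand apart at the lower left, with neighbour medians of -0.65 and -0.83, while Luc7l3 and Hnrnph1 are low beside neighbours near 0.

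The exon bins show how the transcripts of these genes changed in make-up. The authors' deposited tables test whether the use of a bin, relative to the rest of its gene, differs from parental cells. In Tet1kd cells 968 bins of the members were tested, of which 52 were more and 44 less used (5.37% and 4.55%), against 1.15% and 1.41% of all bins tested. In Tet2kd cells 32 of 965 were more and 40 less used (3.32% and 4.15%), against 1.07% and 1.38% of all bins.

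Among bins with a mean of at least 50 normalized counts, 40 of 505 bins of the members were more used and 40 less used in Tet1kd cells (7.92% each), against 2.82% and 2.91% of all such bins. The Tet2kd values were 31 and 39 of 493 (6.29% and 7.91%), against 2.89% and 3.28%. At least 1 called bin was found in 28 of 38 well expressed members in Tet1kd cells, against 35.3% of well expressed genes, and in 22 of 37 in Tet2kd cells, against 35.0%. These shares were not matched for the level of a gene above the limits or for its number of bins. Both comparisons use the same parental libraries, so a bin called in both is given by its values side by side.

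**Figure D4:**
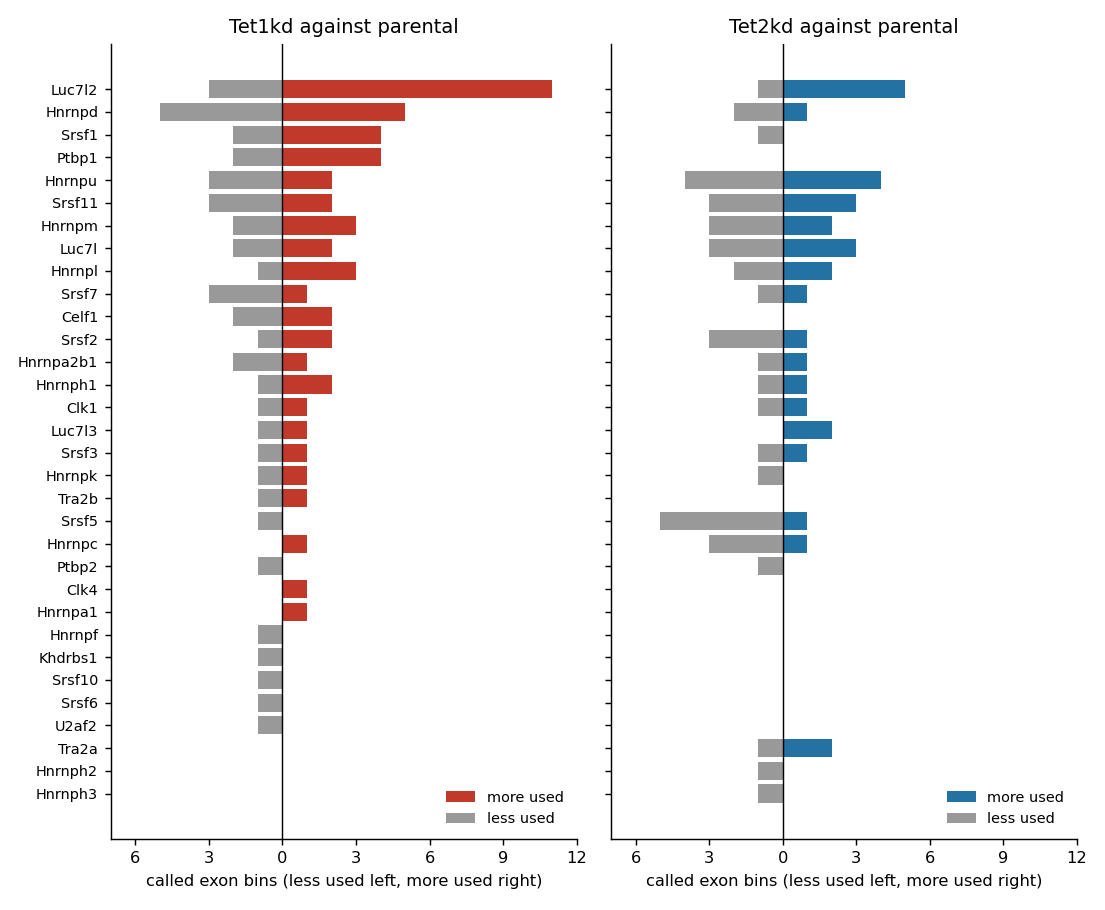
Number of exon bins called at an adjusted p under 0.05 (x axis, more used to the right and less used, in grey, to the left) for each splicing factor gene with at least 1 called bin, in Tet1kd (left, red) and Tet2kd cells (right, blue). Luc7l2 has the most, with 11 more used and 3 less used bins in Tet1kd cells, followed by Hnrnpd with 5 and 5.

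The scale of the deposited log2 ratio of bin use is not certain. The share of a bin among the parental reads of its gene, computed from either comparison, differed least between the comparisons when the ratio was multiplied by 2 (median difference 0.0116 on the log2 scale over 950 bins, against 0.0396 with the ratio as it stands). Ratios are therefore given as deposited, with knockdown over parental, and the reads of a bin per 100 reads of its gene are computed with that factor. If the ratio is on the plain log2 scale, the change in reads per 100 is smaller than printed here, while the ratio and its adjusted p are as deposited. A read that spans several bins may count in each, so the values per 100 are shares of bin counts. Neighbouring bins with near-equal means, such as Hnrnpc bins 3 and 4 (108 and 107 in the Tet2kd comparison), may hold the same reads. Their calls then do not stand for separate changes. The coordinates of the bins were not used here. Bins are numbered along the chromosome, which on the plus strand runs from the 5′ end.

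Luc7l2, a LUC7-like partner of the U1 particle, had the most called bins. In Tet1kd cells 14 of its 37 tested bins were called by the authors' deposited table, while the level of the gene was 85.0% of the parental mean. A run of 15 neighbouring bins, 8 to 22 of 39 from the 5′ end, had positive ratios throughout, from 0.36 to 1.16, and 11 of them were called. In sum these bins took 12.7 reads per 100 reads of the gene in parental cells and 33.0 in Tet1kd cells. A read over several of these bins may count more than once in the sum. The run was chosen after its values were seen and its sum was not tested.

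The largest bin of the Luc7l2 run, bin 11, took 5.30 reads per 100 in parental and 13.1 in Tet1kd cells (deposited ratio 0.65, adjusted p listed as 0 by the authors' deposited table). Bin 21 rose from 1.02 to 4.08 (ratio 1.00, adjusted p listed as 0 by the authors' deposited table). Bins 10 and 22 were also called in both knockdowns (0.89 and 0.51 in Tet1kd, 0.48 and 0.31 in Tet2kd cells). Downstream, bin 33, which held 43.7 of 100 parental reads, fell to 30.1 (ratio -0.27, adjusted p listed as 0 by the authors' deposited table), and bins 27 and 34 were also less used. The same run was raised less in Tet2kd cells, where 14 of the 15 bins had positive ratios, 5 were called and the sum was 18.8 reads per 100 against 12.6. Bin 33 was less used there too (ratio -0.08, adjusted p = 0.00658 by the authors' deposited table). Whether the 2 knockdowns differ in these bins was not tested, since the tables hold no bin values per library.

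**Figure D5:**
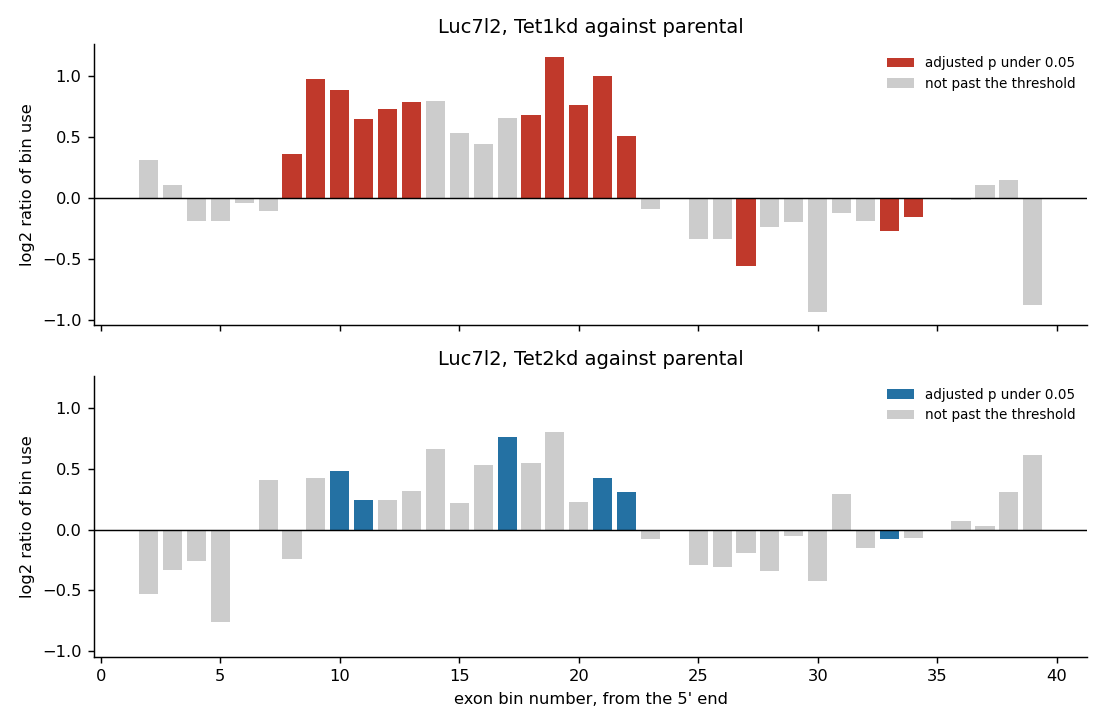
Deposited log2 ratio of bin use (y axis, knockdown over parental) for the tested exon bins of Luc7l2 by bin number from the 5′ end (x axis), in Tet1kd (upper) and Tet2kd cells (lower); coloured bars have an adjusted p under 0.05 and grey bars do not. Bins 8 to 22 lie above 0 in Tet1kd cells, and bin 33 lies below 0 in both.

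The other LUC7-like genes also had bins called in both knockdowns. In Luc7l, bins 16 and 17 were less used (ratios -0.43 and -0.39 in Tet1kd, -0.28 and -0.38 in Tet2kd cells by the authors' deposited table) and bin 13 was more used (0.25 in each). Bin 17 had the smallest adjusted p of the gene in Tet2kd cells (2.52e-04) and bin 16 in Tet1kd cells (1.92e-04 by the authors' deposited table). In Luc7l3 bin 5, near the 3′ end of this minus-strand gene, rose from 6.51 to 9.75 reads per 100 in Tet1kd cells and from 6.53 to 8.31 in Tet2kd cells. Its deposited ratios were 0.29 and 0.17 (adjusted p = 3.82e-06 and 0.0299 by the authors' deposited table), beside a fall of the gene as a whole. Bin 9 had a smaller adjusted p in Tet2kd cells (ratio 0.34, adjusted p = 0.0244 by the authors' deposited table). U2af2 had 1 called bin, bin 9 in Tet1kd cells (-0.10), and U2af1 none.

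Srsf11 combined a lower level in Tet1kd cells with higher use of inner bins in both knockdowns. Bin 36 rose from 4.92 to 8.04 reads per 100 in Tet1kd cells (ratio 0.35, adjusted p listed as 0 by the authors' deposited table) and from 4.87 to 6.58 in Tet2kd cells (0.22, adjusted p = 5.38e-07). Bin 32 was also more used in both (0.34 and 0.23) and bin 18 less used in both (-0.20 and -0.16 by the authors' deposited table). The level of Srsf11 did not pass the test in Tet2kd cells (adjusted p = 0.900 by the authors' deposited table), so its bins changed there without a called change of the gene.

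In Srsf7, which carries a zinc knuckle, the last bin at the 3′ end was more used in both knockdowns (0.17 with adjusted p listed as 0 in Tet1kd cells, 0.10 with adjusted p = 0.0182 in Tet2kd cells, by the authors' deposited table). It went from 27.9 to 35.5 reads per 100 in Tet1kd cells. The smallest adjusted p of Srsf7 in Tet2kd cells was that of bin 11, which was less used (-0.22, adjusted p = 0.0126 by the authors' deposited table). Srsf3 bin 13 was less used in both (-0.11 and -0.10), and so was Srsf1 bin 4 (-0.10 and -0.17 by the authors' deposited table). In Srsf1 6 bins were called in Tet1kd cells, of which 4 among the last 5 bins of the gene were more used, led by bin 21, the last one (0.10, adjusted p = 2.73e-05 by the authors' deposited table).

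In Srsf5 the 2 knockdowns gave calls of opposite sign. Its bins 4 to 8, next to each other, were all less used in Tet2kd cells, with ratios from -0.45 to -0.39, and had ratios from 0.12 to 0.17 without a call in Tet1kd cells. Their means in the Tet2kd comparison, 57.3 to 75.0, were close, so these bins may largely hold the same reads. Bin 27 was less used in Tet1kd (-0.23, adjusted p = 9.70e-06) and more used in Tet2kd cells (0.09, adjusted p = 0.00848 by the authors' deposited table). The level of Srsf5 passed the test in neither. Srsf10 bin 16 was less used in Tet1kd cells (-0.62, adjusted p = 0.00197), and Tra2b bin 18 was more used there (0.77, adjusted p = 0.00504 by the authors' deposited table). Both bins held few reads, with means of 35.0 and 20.5 normalized counts. Tra2b also lost use of its last bin (-0.10, adjusted p = 1.13e-04) by the authors' deposited table.

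Tra2a, which fell most in Tet1kd cells, had no called bin there among 10 tested, and 3 in Tet2kd cells, led by bin 2 (0.07, adjusted p = 0.0312 by the authors' deposited table). Srsf6 bin 9 (-0.10) in Tet1kd cells and, in the merged row of Srsf2, bin 8 (-0.11) in Tet1kd and bin 7 (0.06) in Tet2kd cells had the smallest adjusted p of their genes. Srsf4 and Srsf9 had no called bin in either knockdown by the authors' deposited table.

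Among hnRNP genes, Hnrnpd had 10 called bins in Tet1kd cells, 5 in each direction. Its last bin at the 3′ end rose from 4.48 to 7.14 reads per 100 (ratio 0.34, adjusted p = 7.91e-12 by the authors' deposited table), with bins 8 to 11 also more used and bins 7, 16, 17, 18 and 20 less used. Bin 7 went the other way in Tet2kd cells (0.10, adjusted p = 0.0431, against -0.12 in Tet1kd cells by the authors' deposited table), where bin 28 had the smallest adjusted p (-0.31, 0.0351). Hnrnph1 bin 30 was less used in both, falling from 5.33 to 3.26 reads per 100 in Tet1kd cells and from 5.25 to 2.97 in Tet2kd cells (ratios -0.35 and -0.41 by the authors' deposited table). In Tet1kd cells the smallest adjusted p of Hnrnph1 was that of bin 11, which was more used (0.40, 2.84e-06 by the authors' deposited table).

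Ptbp2 bin 8 fell from 5.47 to 3.01 reads per 100 in Tet1kd and from 5.48 to 1.98 in Tet2kd cells (ratios -0.43 and -0.73, adjusted p = 0.0361 and 0.0186 by the authors' deposited table). Ptbp2 is the neural paralog of Ptbp1, and the level of the gene passed the test in neither knockdown. Ptbp1 had 6 called bins in Tet1kd cells, led by bin 52 (0.07, adjusted p = 0.00283), and none in Tet2kd cells by the authors' deposited table. Hnrnpl bin 32 was less used in both (-0.15 in each), and Hnrnpk bin 16 too (-0.15 and -0.12 by the authors' deposited table). The smallest adjusted p of Hnrnpl was that of bin 15 in Tet1kd cells (0.35, 8.17e-05) and of bin 13 in Tet2kd cells (0.13, 0.00335 by the authors' deposited table).

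Hnrnpa2b1 bin 3 was slightly more used in both (0.05 and 0.07), and its bin 2 was less used in Tet1kd cells (-0.30, adjusted p = 7.34e-10 by the authors' deposited table). Hnrnpc had 1 called bin in Tet1kd cells, bin 2 (0.06), and 4 in Tet2kd cells, led by bin 6 (-0.31, adjusted p = 0.00427 by the authors' deposited table). The level of Hnrnpc passed the first test in neither. In the merged rows, Hnrnpu bin 27 was less used in both (-0.20 and -0.29), bins 1 and 9 were more used in both, Hnrnpm bins 19 and 20 were less and bin 48 was more used in both, by the authors' deposited table. The smallest adjusted p of the Hnrnpm row in Tet2kd cells was that of bin 7 (0.13, 3.74e-04 by the authors' deposited table). Remaining hnRNP genes with a call had 1 each: Hnrnpa1 bin 8 (0.20) and Hnrnpf bin 3 (-0.31) in Tet1kd cells, and Hnrnph2 bin 10 (-0.15) and Hnrnph3 bin 16 (-0.38) in Tet2kd cells, by the authors' deposited table. Hnrnpr and Hnrnpa3 had none, and Hnrnpa0 is a single bin that was not tested.

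The kinase gene Clk1 had 2 called bins in each knockdown, led by bin 30 in Tet1kd (-0.31, adjusted p = 0.00316) and bin 34 in Tet2kd cells (-0.35, adjusted p = 0.0102 by the authors' deposited table). The merged row of Clk4 had 1, bin 38 in Tet1kd cells, at a mean of 14.5 normalized counts (0.80, adjusted p = 0.0135 by the authors' deposited table). Of the tissue-biased regulators, Celf1 had 4 called bins in Tet1kd cells, led by bin 32, which rose from 8.39 to 11.0 reads per 100 (0.20, adjusted p = 2.69e-09 by the authors' deposited table). Khdrbs1 had 1, bin 5, with few reads (-1.23, adjusted p = 0.0279 by the authors' deposited table). Mbnl1, Mbnl2 and Rbfox2 had none in either knockdown, and none of the 5 tissue-biased genes had a called bin in Tet2kd cells.

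Other lists of genes of RNA splicing were counted in the same way. Of 15 other SR-related genes and kinases 7 fell and 4 rose in Tet1kd cells (median log2 fold change -0.17). The kinase genes Prpf4b (-0.77) and Dyrk1a (-0.59) fell, and Clk2 (0.81), a relative of Clk1 and Clk4, and Srek1ip1 (0.69) rose by the authors' deposited table. Of 16 other hnRNP-related genes 7 fell and 1 rose (median -0.20), with Pcbp1 (-1.21), a poly(C)-binding protein whose gene lies in the same stretch of chromosome 6, and Tardbp (-0.45) lower and Hnrnpul1 (0.22) higher by the authors' deposited table. Of 19 other splicing regulators with values, 6 fell and 4 rose (median -0.17). Tia1 (-0.69), also in that stretch, and the neuronal Nova1 (-1.40) fell, and the epithelial regulators Esrp1 (0.97) and Rbm47 (0.73) rose by the authors' deposited table.

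Of 40 genes of the core spliceosome 19 fell and 1 rose in Tet1kd cells (median -0.23). Crnkl1 (-0.56) and Sf3b3 (-0.47), a subunit of the SF3b complex, fell and Snrpa (0.22), a U1 particle protein, rose by the authors' deposited table. Of 15 genes of nonsense-mediated decay, the pathway that removes transcripts with poison exons, 8 fell and 0 rose (median -0.33), among them Smg5 (-0.78) by the authors' deposited table. In Tet2kd cells the same 5 lists had 2, 0, 1, 4 and 1 genes lower and 0, 1, 4, 0 and 0 higher. Among them Rbm47 (0.69), Nova2 (0.52) and Pcbp1 (0.26) rose by the authors' deposited table. Cdc5l (-0.48), a part of the activated spliceosome, Prpf3 (-0.39), Smg8 (-0.36), Rbm25 (-0.34), Prpf4b (-0.33) and Pnn (-0.31) fell by the authors' deposited table. Over all genes, 15.3% fell and 15.2% rose in Tet1kd cells, and 3.29% fell and 3.85% rose in Tet2kd cells. Among well expressed genes 25.9% fell and 23.9% rose in Tet1kd cells, near which the other splicing regulators lie.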

How the data were processed

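Poly(A) RNA of 12 libraries in 3 groups was sequenced. Reads were processed with TopHat2 2.0.0, SAMtools 0.1.18 and DESeq on mouse builds mm9 and NCBIM37, per the submitters' processing notes. The counting tool is not named there. Per the file headers, the authors deposited group means of normalized counts (a signal, not counts per library), the fold (a ratio), its log2 value and p-values of 2 tests per gene, and per exon bin a mean, a log2 ratio of use, p-values and a dispersion score. The sign of the bin ratio was turned to knockdown over parental.

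Genes were called at an adjusted p under 0.05 of the first deposited test. Reads per library were recovered as the whole numbers that give the deposited means, for 21077 of 22004 parental, 20901 of 21658 Tet1kd and 20561 of 21368 Tet2kd genes (99.9728%, 69.4% and 64.2% of reads). Values were sought within 60% of the group mean, plus a margin for low counts. The limit was 20% for 1397 Tet1kd and 753 Tet2kd genes. As a check, 6000 parental genes recovered from both tables together were recovered again from 1 table: 5848 gave an answer, in each case the same one. Recovered libraries cannot be tied to the numbered replicates. They were tested with limma 3.58.1 in R 4.3.3 on log2(normalized count + 0.5), for genes with a mean of at least 10, with Benjamini-Hochberg adjustment over all genes, after a check on simulated data. For some members, such as Khdrbs1, the spread between libraries is no larger than counting error. Deviations of libraries from their group means correlated at 0.372 to 0.584 within and at -0.533 to -0.369 across the deeper and the shallower sets.

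The members, lists and rules were chosen with earlier results of these data known. Genes were named if called with a change of at least 1.5-fold, with all other members given by value; for bins, the smallest adjusted p of a gene in each comparison and bins called in both; for lists, the 2 smallest adjusted p in each direction. Further members and bins, and the runs of bins in Luc7l2 and Srsf5, were named after their values were seen. Alternatives were other thresholds, filters, pseudocounts and scales, the second deposited test and leaving out libraries. Rbm4 was not used here, and 1 gene that the rule for lists names is not reported here.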

Additional observations from a re-analysis of the deposited data

Results flagged for a closer look

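The difference between the knockdowns passed the limma test over all 12 libraries for 16 splicing factor genes, given here as log2 Tet1kd minus Tet2kd. Among SR genes it was -0.81 for Tra2a (adjusted p = 1.95e-08 by limma), -0.38 for Srsf10 (0.00209), -0.34 for Srsf4 (1.90e-04), -0.34 for Srsf3 (0.0361) and -0.31 for Tra2b (0.0339). Among hnRNP genes it was -0.58 for Hnrnph1 (adjusted p = 1.61e-06 by limma), -0.35 for Hnrnpf (0.00419), -0.32 for Hnrnpr (8.59e-04) and -0.31 for Hnrnpd (1.39e-04). It was -0.41 for U2af2 (adjusted p = 2.91e-04 by limma), -0.34 for Luc7l3 (0.00121) and -0.26 for U2af1 (0.0393). For the kinase genes it was -0.37 in the merged row of Clk4 (adjusted p = 7.92e-04 by limma) and -0.25 for Clk1 (0.00643), whose change passed the test against parental cells in neither knockdown. Khdrbs1 differed by -0.15 (adjusted p = 0.00314 by limma), having fallen in both. Mbnl2 differed by 0.71 (adjusted p = 7.92e-06 by limma).

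A single library stood apart from the other 3 of its group in 2 of 101 groups checked, where chance gives about 1 in 20. Hnrnpf was at 708 normalized counts in Tet1kd library d, against 821 to 843 in the others. The merged row of Clk4 was at 730 in Tet2kd library c, against 826 to 838.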

How the results depend on the processing

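The count of splicing factor genes called in Tet1kd cells was 23 and lay between 18 and 32 under every alternative run, except that 5 were past a 1.5-fold change. In Tet2kd cells 3 genes were called, but 13 by the second deposited test, 10 by limma with deeper and shallower libraries as a term, 5 with only the deeper and 5 with only the shallower libraries. A threshold of 0.01 left 1 and a 1.5-fold change 0. By limma, which called 4, leaving out 1 library gave 2 to 5 (2 without parental replicate b or Tet2kd replicate c, 5 without Tet2kd replicate d). The same gave 18 to 22 in Tet1kd cells and 13 to 17 between the knockdowns, where 16 were called with all libraries and the count ranged from 13 to 21 under all alternatives. At a threshold of 0.01 the called bins fell from 96 to 58 in Tet1kd and from 72 to 34 in Tet2kd cells. These counts of genes have unlike totals. The deposited tests cover 41 members, limma 32 in Tet1kd cells and 28 in Tet2kd cells or between the knockdowns. Apart from the deposited tests and the main test between the knockdowns, the shares of all genes are not given here. Those counts, and the bins at 0.01, have no background. The counts of negative log2 fold changes, 35 and 26, were the same after re-centring. For 42 results on single genes, 640 alternatives gave 621 values on the same side of the threshold, 19 that lost a call and none of opposite sign. For 86 results on single bins, 171 gave 144 and 27, all 27 at a threshold of 0.01, among them Ptbp2 bin 8 in both knockdowns, Clk4 bin 38 and Khdrbs1 bin 5. The lost calls of genes were those of Hnrnpa0 in Tet1kd cells, of Mbnl1 in Tet2kd cells and of Srsf3, Tra2b and U2af1 between the knockdowns. The cause was not tested. Alternatives with a depth term, with only deeper or shallower libraries, with other centring, and without Luc7l2, merged rows or the chromosome 6 genes were chosen after seeing the data. No paired analysis was possible because the recovered libraries carry no replicate numbers; the depth term stands for a set of libraries, not for a replicate. Count tests on the recovered reads were not run. Replicates are named here by their library letters.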
